A study of Homo sapiens with 16 samples.

Results

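The comparison described here is the effect of Corin added to all-trans retinoic acid (ATRA) in U-937 cells: 2 libraries of U-937 treated with both compounds were set against 2 libraries of U-937 treated with ATRA alone, 4 of the 16 RNA-seq libraries in the series. The members are all genes of the count table, chosen by the library labels and by no measured value, and 16858 genes had enough reads to be tested. U-937 is a human monocytic line that the labels call an acute myeloid leukaemia line. ATRA was given at 0.1 µM in both groups, Corin at 0.1 µM in the combination group, and all cells were collected after 24 h. The other 12 libraries are U-937 with DMSO or Corin alone and SKNO-1, a second acute myeloid leukaemia line, with the same 4 treatments. Both U-937 groups carry ATRA, so each value below is what Corin adds on top of ATRA. Libraries without ATRA entered no value below except those named as alternative fits with all 8 U-937 or all 16 libraries. The labels do not say whether the 2 libraries of a group came from separate cultures, so the p-values measure only the spread between these libraries, which may be technical. Each line is a single established line, so the values describe that line only.

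ATRA binds the retinoic acid receptors, which with their RXR partners turn from repression to activation of target genes and push many myeloid leukaemia cells towards granulocytes or monocytes. Corin is a hybrid small molecule that targets the CoREST complex, in which the demethylase LSD1 (gene KDM1A) and the deacetylases HDAC1 and HDAC2 are held together by an RCOR scaffold. CoREST is brought to DNA by repressors such as GFI1, and it keeps histones near differentiation genes free of acetyl groups and of methyl groups on lysine 4. Myeloid maturation is known for the gain of surface receptors, antigen presentation and granule proteins and for exit from the cell cycle.

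Total counts were 36.3 M and 34.1 M in the ATRA libraries and 34.4 M and 31.9 M in the combination libraries. Small RNA genes took 9.56% and 11.1% of the ATRA counts and 14.1% and 14.3% of the combination counts, and protein-coding genes took 87.0% and 85.4% against 81.7% and 81.8%. These shares moved with the groups, so the fit was repeated without the small RNA genes, which called 8633 genes. The combination pair differed from each other more than the ATRA pair did (SD of the log2 difference 0.194 against 0.139 over 9366 well-expressed genes, those above 3 on the log2 CPM scale), and that difference followed GC content (r = 0.43 across genes, which are not independent replicates, against −0.16 in the ATRA pair). The effect of Corin itself had a correlation with GC content of 0.015. All 10 of 10 markers of the monocytic line were detected, with a summed level of 666 and 601 TPM (a level corrected for transcript length) in ATRA and 1991 and 2004 TPM in the combination, of which LYZ made up a mean of 188 TPM and 1528 TPM. Of 9 erythroid markers 6 were at 0 in all 4 libraries, the globins HBA1, HBB, HBG1 and HBG2 among them, and the list summed to 1.65 to 2.55 TPM. The megakaryocyte, dendritic cell and non-haematopoietic lists summed to at most 2.10 TPM in any library, the B cell list to 3.59 to 4.35 TPM with MS4A1 at 0, and the eosinophil, basophil and mast cell list to 8.74 to 12 TPM with CLC, EPX and CPA3 at 0. The dendritic cell list differed between the groups, with 0.29 and 0.08 TPM in ATRA and 2.10 and 1.89 TPM in the combination. The T and NK cell list summed to 183 and 184 TPM in ATRA and 120.2 and 128 TPM in the combination, nearly all of it NKG7 (117 and 136 CPM, counts relative to the scaled library size, in ATRA and 97.8 and 105 CPM in the combination), while CD3D, CD3E and CD3G had at most 2 counts each over a group. The part of the small RNA share and of these markers in the gene results below was not tested beyond the fit without small RNA genes.

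Adding Corin changed 8639 of the 16858 genes at an adjusted p under 0.05 (51.2%, edgeR quasi-likelihood test with Benjamini-Hochberg adjustment). Of these, 4001 were higher (23.7% of the genes tested) and 4638 lower (27.5%). A change of at least 1 on the log2 scale was found for 1668 genes higher (9.89%) and 1568 lower (9.3%). A change of at least 2 was found for 612 genes higher (3.63%) and 402 lower (2.38%). A change of at least 3 was found for 265 genes higher (1.57%) and for 89 lower (0.528%). Both combination libraries were above both ATRA libraries in 6126 genes (36.3%) and below both in 6532 (38.7%). The 1668 genes that rose by at least 1 had a median of 0.845 CPM in ATRA and 3.30 CPM in the combination, and 868 of them were under 1 CPM in ATRA and 387 in the combination. The 1568 genes that fell by at least 1 had a median of 17.0 CPM in ATRA and 5.13 CPM in the combination, and 177 of them were under 1 CPM in ATRA and 406 in the combination. Among 12463 protein-coding genes tested, 3105 rose and 4223 fell, while among 2744 long non-coding RNA genes 660 rose and 239 fell. The split between higher and lower calls depends on how the libraries are centred. Higher calls were 46.3% of all calls as fitted, where the median change of all genes was −0.006, and 56.5% (4944 of 8756) when the libraries were centred so that well-expressed genes had a mean change of 0, which moved the median of all genes to 0.11.

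**Figure D1:**
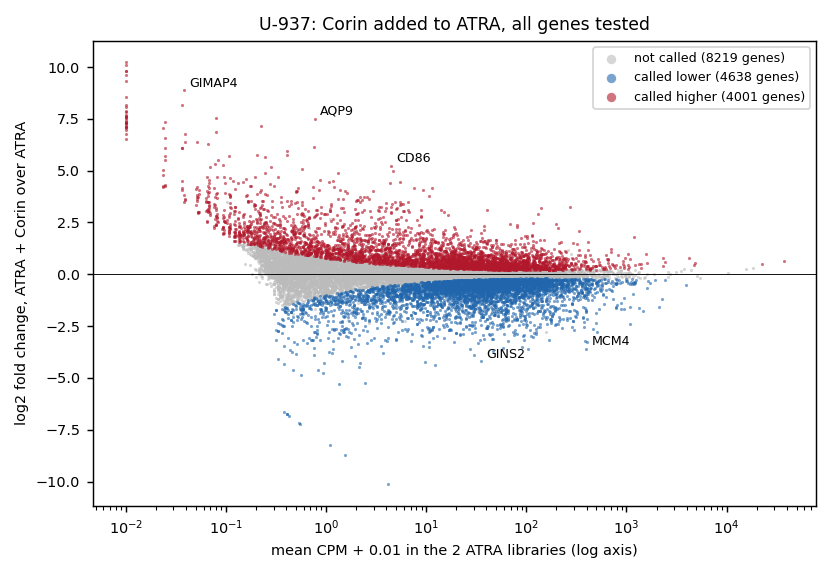
Log2 fold change of the combination over ATRA alone in U-937 (vertical axis) against the mean level in the 2 ATRA libraries (CPM plus 0.01, log axis), 1 point for each of the 16858 genes tested. The 4001 genes called higher reach larger changes than the 4638 called lower, with 265 rises and 89 falls of at least 3. Of these, 200 rises were under 1 CPM in ATRA and 65 falls under 1 CPM in the combination, so most are ratios to few reads.

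The 12 largest rises, taken from genes that averaged 5 CPM or more, are given first, and since these genes were chosen for their rise, their low level in ATRA is set by that choice. AQP9, a water and glycerol channel of leukocytes and liver (GRCh38 chromosome 15, 58138169 to 58185911), had 0.669 and 0.856 CPM in the ATRA libraries and 131 and 147 CPM in the combination libraries, a log2 change of 7.51 (SE 0.144, adjusted p = 2.12e-13). CD86, the costimulatory ligand that antigen-presenting cells show to T cells (chromosome 3, 122055362 to 122121139), had 3.82 and 5.08 CPM against 156 and 178 CPM, a change of 5.24 (SE 0.132, adjusted p = 5.86e-12). CD52, a small glycoprotein anchored on leukocytes (chromosome 1, 26317958 to 26320523), had 4.39 and 4.87 CPM against 141 and 154 CPM, a change of 4.99 (SE 0.109, adjusted p = 7.13e-13). In each of these 3 genes both combination libraries stood far above both ATRA libraries, and the replicates of a group lay close together. GIMAP4, a GTPase of immune cells, had 1 count in each ATRA library and 980 counts over the combination libraries, which is 533 times as many after scaling (95% counting interval 147 to 4407). OR5AN1, an olfactory receptor gene, had 0.0802 and 0.0591 CPM in ATRA and 17.2 and 10.4 CPM in the combination, a change of 7.55 (SE 0.407). The cytokine gene TNFSF15 had 0.134 and 0.295 CPM against 28 and 33.1 CPM, a change of 7.15 (SE 0.233). These genes were close to silent with ATRA alone. The cannabinoid receptor CNR2 changed by 6.16 (SE 0.15), the cytosolic DNA sensor AIM2 by 5.93 (SE 0.2), the membrane protein EMP1 by 5.74 (SE 0.199) and the fungal glucan receptor CLEC7A by 5.74 (SE 0.293). The long non-coding RNA LUCAT1 changed by 5.67 (SE 0.28), and TLR8, an endosomal receptor for single-stranded RNA, went from 0.374 and 0.768 CPM to 17.9 and 20.8 CPM, a change of 5.09 (SE 0.238).

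The 12 largest falls include GINS2, CDC45, CDC6, MCM4, CDT1 and ORC1 of the origin licensing list and CCNE2 of the G1 list, described below with those lists. FERMT1, an integrin-binding protein of epithelia, had 12.7 and 11.9 CPM in ATRA and 0.375 and 0.811 CPM in the combination, a change of −4.39 (SE 0.259, adjusted p = 3.91e-09). FAM81A followed with 9.84 and 9.54 CPM against 0.49 and 0.551 CPM, a change of −4.21 (SE 0.233). ALDH5A1, which oxidises succinic semialdehyde in GABA breakdown, changed by −3.48 (SE 0.224). DTL, an adaptor of the ubiquitin ligase that destroys CDT1, had 104 and 103 CPM against 6.83 and 10.2 CPM, a change of −3.60 (SE 0.154). ZNF367, a zinc finger factor, had 27.6 and 27.8 CPM against 2.11 and 2.4 CPM, a change of −3.62 (SE 0.142). In all 24 genes the groups did not overlap, which the rule that chose them asked for.

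**Figure D2:**
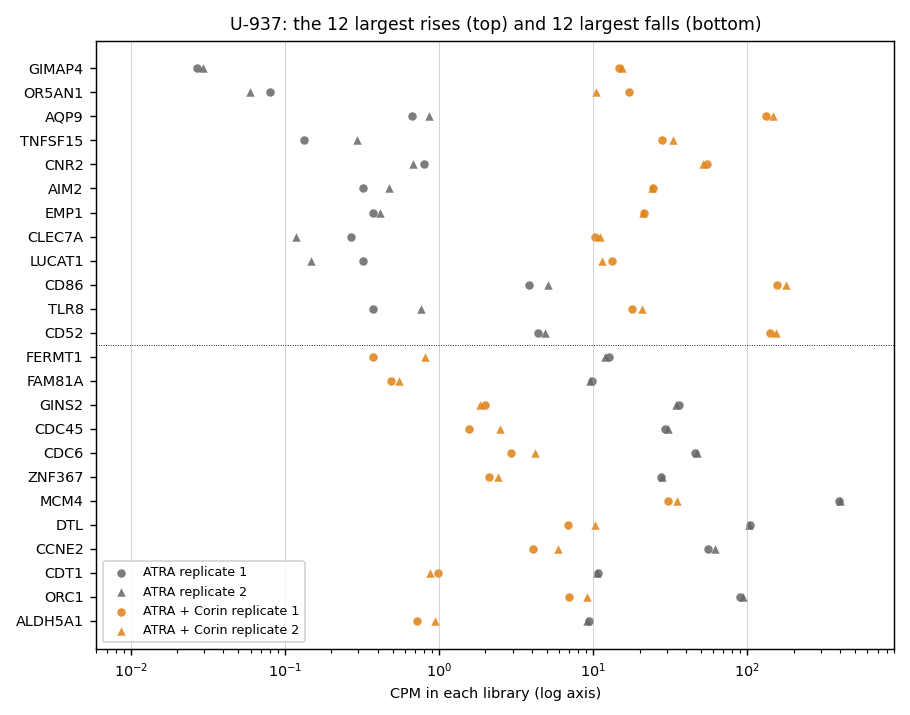
Level of the 12 largest rises and the 12 largest falls in each of the 4 U-937 libraries (CPM, log axis), grey for ATRA and orange for ATRA with Corin, circles for replicate 1 and triangles for replicate 2. The selection by size of change and by mean level sets where the points of each group lie, and MCM4 has the highest CPM, at 393 and 401 CPM in ATRA.

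The genes of origin licensing and the replicative helicase fell as a block. All 17 of 17 list members were lower in the combination, with a list median of −3.19 beside −0.006 for all genes tested and 27.5% of all genes called lower. MCM4, a subunit of the MCM2-7 helicase that unwinds the replication fork, had 393 and 401 CPM in ATRA and 30.5 and 34.9 CPM in the combination, a change of −3.60 (SE 0.0963, adjusted p = 2.66e-12). Its partners MCM7 and MCM3 had 366 and 405 CPM against 39.7 and 43 CPM and 377 and 375 CPM against 60.2 and 68.8 CPM. The values of the 2 libraries of each group lay near each other, and the groups were about an order of magnitude apart for MCM4 and MCM7. CDC6, which with ORC1 loads the helicase on origins, had 45.5 and 47.1 CPM against 2.91 and 4.18 CPM, a change of −3.71 (SE 0.145, adjusted p = 7.50e-11). CDC45 and GINS2, which switch the loaded helicase on, had 29.2 and 30.6 CPM against 1.56 and 2.5 CPM and 35.9 and 34.4 CPM against 1.99 and 1.85 CPM, changes of −3.89 (SE 0.173) and −4.19 (SE 0.138). CDT1 and ORC1, which act with CDC6 in loading the helicase, changed by −3.52 (SE 0.206) and −3.51 (SE 0.119). The smallest change in the list was −1.59. In bulk RNA, fewer cycling cells and less of these RNAs in each cell cannot be told apart.

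The start site regions of 4 genes of these groups are shown to make the motif counts below readable, each with 1 of the searched motifs in capitals. The promoters were not measured here. Each runs from 200 bases before the RefSeq transcription start to 20 bases from it, 5′ to 3′ on the gene's strand, in GRCh38.p14. CDC6 (chr17:40287679-40287898, plus strand) and GINS2 (chr16:85688935-85689154, minus strand) belong to the licensing list and have an E2F-like motif (TTTGGCGC or TTTCCCGC on either strand) that begins 7 bases after and 31 bases before the start.
CDC6: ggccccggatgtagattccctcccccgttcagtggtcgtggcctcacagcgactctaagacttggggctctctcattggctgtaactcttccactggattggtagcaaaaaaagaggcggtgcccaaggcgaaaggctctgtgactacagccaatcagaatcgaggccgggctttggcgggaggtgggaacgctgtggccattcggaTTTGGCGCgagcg
GINS2: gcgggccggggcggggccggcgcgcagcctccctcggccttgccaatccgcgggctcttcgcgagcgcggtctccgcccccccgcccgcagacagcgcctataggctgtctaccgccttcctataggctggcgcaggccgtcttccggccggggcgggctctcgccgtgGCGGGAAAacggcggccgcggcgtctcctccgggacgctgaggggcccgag
PLK1 (chr16:23678689-23678908, plus strand), a kinase of mitotic entry, belongs to the mitosis list and has the cell cycle homology region motif TTTGAA 29 bases before the start.
PLK1: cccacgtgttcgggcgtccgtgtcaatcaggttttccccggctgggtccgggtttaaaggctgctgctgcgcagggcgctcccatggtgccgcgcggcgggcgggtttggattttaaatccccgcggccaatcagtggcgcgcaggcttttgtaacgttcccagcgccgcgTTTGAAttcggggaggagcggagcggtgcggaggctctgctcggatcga
TLR8 (chrX:12906420-12906639, plus strand) is 1 of the 12 largest rises, was chosen for its 4 matches to AAATCA, the core of the GFI1 site, on either strand, and also holds 1 match to TTTGAA on the minus strand, left in lower case.
TLR8: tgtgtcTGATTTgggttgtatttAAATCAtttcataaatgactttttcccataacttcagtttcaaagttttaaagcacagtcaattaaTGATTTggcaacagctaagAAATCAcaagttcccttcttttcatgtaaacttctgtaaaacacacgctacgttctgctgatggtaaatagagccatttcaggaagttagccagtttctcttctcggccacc

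Over whole promoters of 300 bases (250 before to 50 after the start), the E2F-like motif was found on either strand in 9 of 19 promoters of the licensing list (47.4%), in 7 of 23 of the replication fork list (30.4%) and in 797 of all 34961 promoters (2.28%). TTTGAA was in 13 of 20 promoters of the mitosis list (65.0%), in none of the 19 licensing promoters and in 15.2% of all promoters. AAATCA was in 5 of 13 promoters of the 12 largest rises (38.5%, 4 of 11 genes, since AQP9 has 2 overlapping windows) against 13.2% of all, and the retinoid half-site AGGTCA in 1 of 13 (7.69%) against 13.8%. The promoters of the rises held TTTGAA more often, in 7 of 13 cases (53.8%, 6 of 11 genes), and had a median GC content of 44.3% against 58.7% for all promoters. The part of base composition in these shares was not tested. The licensing and mitosis promoters had a median GC content of 60.7% and 61.2%. Promoter sequences were found in the RefSeq table for 14 of the 17 licensing genes, 18 of the 22 mitotic genes and 11 of the 12 rises. A match describes the letters only and is not a measured site.

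In the replication fork and nucleotide supply list 19 of 19 members were lower (27.5% of all genes), with a median of −2.45. PCNA, the sliding clamp of the DNA polymerases, had 444 and 473 CPM in ATRA and 68.3 and 81 CPM in the combination, a change of −2.62 (SE 0.0991, adjusted p = 4.48e-11). RRM2, the regulated subunit of ribonucleotide reductase, had 515 and 497 CPM against 67.8 and 77 CPM, a change of −2.81 (SE 0.0936). Both combination libraries were far below both ATRA libraries in each gene, and they were below in 38.7% of all genes tested. Thymidylate synthase (TYMS) and thymidine kinase (TK1), which make the thymidine nucleotides, changed by −3.03 (SE 0.0923) and −2.91 (SE 0.162). The clamp loader subunit RFC5 changed by −2.92 (SE 0.118) and the flap nuclease FEN1 by −2.90 (SE 0.0961).

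Replication-dependent histone genes, whose RNAs are made in S phase, were lower in all 20 of the 20 members tested of 25 listed. That share stood beside 27.5% of all genes, and the median was −2.1. H3C2 had 459.8 and 529 CPM in ATRA and 90.6 and 102 CPM in the combination, a change of −2.36 (SE 0.0989, adjusted p = 1.08e-10). H2BC11 went from 204 and 251 CPM to 34.9 and 39.5 CPM, a change of −2.61 (SE 0.11), and H4C8 from 332 and 397 CPM to 79.3 and 87.5 CPM. The 2 ATRA libraries differed more in these genes than in the MCM genes, yet the groups stood well apart. Histone genes share near-identical sequences and the counting could split their reads, so values of single histone genes are uncertain.

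Mitotic genes fell too, by a smaller median. All 22 of 22 members were lower (27.5% of all genes), with a median of −1.71 and a range from −2.41 to −0.82. MKI67, the nuclear proliferation marker Ki-67, had 1119 and 1043 CPM in ATRA and 194 and 212 CPM in the combination, a change of −2.41 (SE 0.0941, adjusted p = 6.00e-11). Cyclin A2 (CCNA2) had 154 and 157 CPM against 34.8 and 40.9 CPM, a change of −2.04 (SE 0.093), and topoisomerase TOP2A had 829 and 956 CPM against 305 and 377 CPM, a change of −1.39 (SE 0.112). PLK1, whose start site region is shown above, had 56.3 and 55.9 CPM against 18.8 and 17.2 CPM, a change of −1.64 (SE 0.0952). The checkpoint kinase BUB1 changed least, by −0.82 (SE 0.0958), and remained at 165 and 199.9 CPM in the combination.

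Upstream of S phase, 14 of 16 tested genes of G1 cyclins, RB family and E2F factors were lower and none higher. This stood beside 27.5% and 23.7% of all genes, and the median was −1.46. Cyclin E2 (CCNE2), the partner of CDK2 at the G1 to S transition, had 55.4 and 61.6 CPM in ATRA and 4.1 and 5.93 CPM in the combination, a change of −3.55 (SE 0.147, adjusted p = 7.74e-10). E2F1, an activator of the S phase genes, had 23.3 and 23.1 CPM against 3.14 and 3.24 CPM, a change of −2.86 (SE 0.138). The phosphatase CDC25A changed by −3.21 (SE 0.104), and E2F8, a repressing family member, by −2.78 (SE 0.0971). Activators and repressors of the E2F family thus fell side by side. Among the 7 CDK inhibitors 3 were higher and 1 lower, beside 23.7% and 27.5% of all genes. CDKN1A (p21), which blocks CDK2, had 12.3 and 17.5 CPM against 58.2 and 62.9 CPM, a change of 2.03 (SE 0.144, adjusted p = 9.70e-07). CDKN2B (p15), which blocks CDK4 and CDK6, had 2.09 and 2.04 CPM against 13.2 and 11.8 CPM, a change of 2.60 (SE 0.176). CDKN2C (p18) went the other way, from 42.4 and 43 CPM to 16.8 and 17.8 CPM, a change of −1.31 (SE 0.0977), while CDKN1B and CDKN2A had changes of −0.20 and −0.23 that did not pass (adjusted p = 0.051 and 0.14).

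MYC, a transcription factor that drives cell growth and part of the stem and progenitor list, had 38.8 and 37.3 CPM in ATRA and 4.3 and 4.44 CPM in the combination, a change of −3.12 (SE 0.119, adjusted p = 5.02e-11). The replicates of each group nearly coincided and the groups were far apart. Of the 12 tested members of that list 4 were higher and 4 lower, shares not far from the 23.7% and 27.5% of all genes. ERG, a stem cell ETS factor, changed by −1.78 (SE 0.338), whereas HOXA9 and SOX4 rose by 0.75 (SE 0.0879) and 0.73 (SE 0.0799), and MEIS1, the HOXA9 cofactor, had a change of 0.20 (adjusted p = 0.055). Ribosome biogenesis genes, many of them known MYC targets, were lower in 19 of 20 cases and higher in none. That stood beside 27.5% and 23.7% of all genes, and the median was −0.894. NOP56, a core protein of the box C/D snoRNPs, had 281 and 291 CPM against 103 and 109 CPM, a change of −1.43 (SE 0.0815). BOP1 changed by −2.03 (SE 0.173) and NOLC1 by −1.67 (SE 0.0847), and nucleophosmin (NPM1), a nucleolar chaperone, by −0.42 (SE 0.099).

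**Figure D3:**
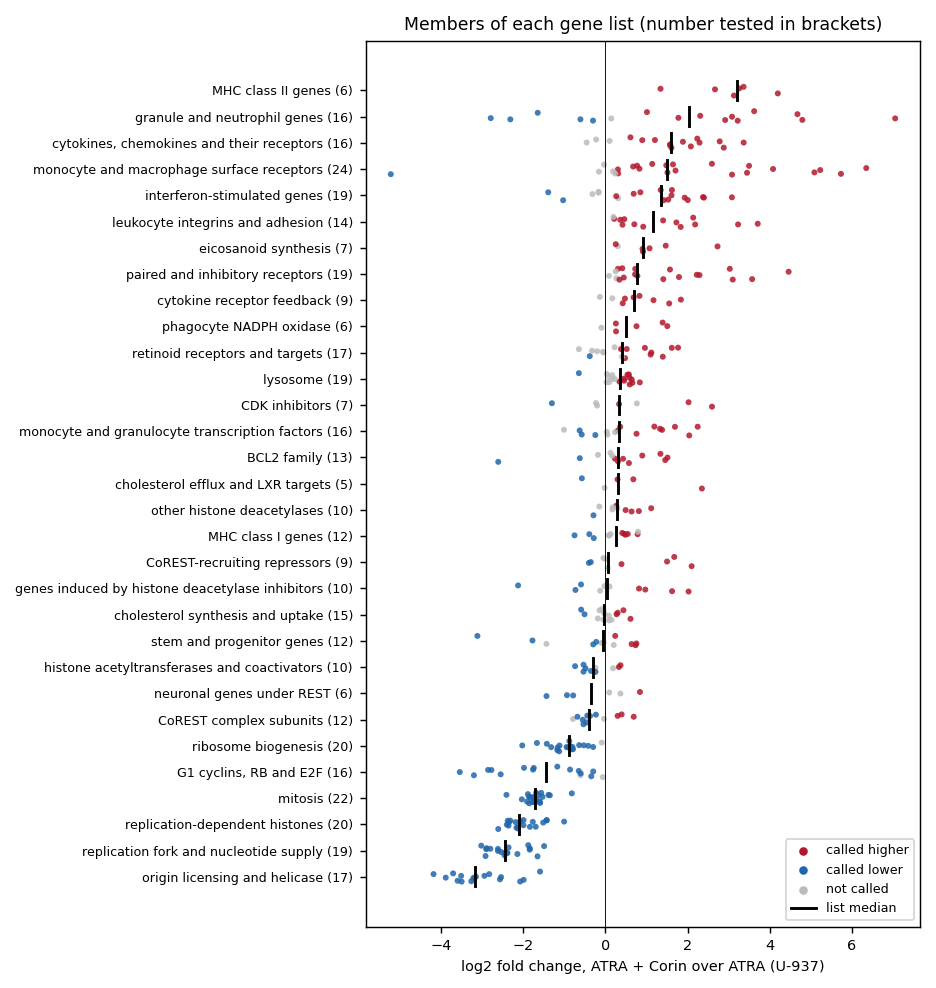
Log2 fold change of the combination over ATRA for each tested member of 31 gene lists, with red for genes called higher, blue for called lower, grey for not called and a black bar at the list median. The replication and histone lists lie wholly to the left of 0, and MHC class II and most surface receptor, integrin and cytokine genes lie to the right.

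On the side of the rises, 19 of 24 tested monocyte and macrophage surface receptors were higher and 1 lower (median 1.5, against 23.7% of all genes called higher). FCER1G, the signalling chain shared by Fc receptors, had 93.6 and 97.9 CPM in ATRA and 249 and 286 CPM in the combination, a change of 1.48 (SE 0.0892, adjusted p = 4.31e-09). CD36, a scavenger receptor for lipids, had 274 and 305 CPM against 776 and 875 CPM, a change of 1.51 (SE 0.0962). CD163, the haemoglobin scavenger receptor of macrophages, had 2 counts in ATRA and 170 in the combination, 92.4 times as many after scaling (95% counting interval 25.2 to 769.6). CLEC7A and CD86, described above, belong to the same list. TREM2, a lipid receptor of tissue macrophages and microglia, was the exception, with 2.17 and 2.69 CPM in ATRA and 0.0865 and 0.0324 CPM in the combination, a change of −5.23 (SE 0.492, adjusted p = 4.37e-07). CD163 and CLEC7A passed the read filter only through the combination libraries, and TREM2 only through the ATRA libraries. The filter thus set the direction in which these genes could be called. CD68, a lysosomal macrophage marker, had a change of 0.19 (adjusted p = 0.073). Of 29 receptors listed, 5 were too low to test, among them CD14 with 4 counts in ATRA and 14 in the combination, and MRC1 and MSR1, which had no count in any of the 4 libraries.

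Leukocyte integrins and adhesion molecules were higher in 13 of 14 cases (23.7% of all genes), with a median of 1.16. ITGAX (CD11c), a β2 integrin chain of myeloid cells, had 29.3 and 27.1 CPM in ATRA and 139 and 109 CPM in the combination, a change of 2.14 (SE 0.115, adjusted p = 9.00e-09). ITGAD changed by 3.23 (SE 0.135) and ITGB7 by 2.19 (SE 0.136), and the fibronectin receptor chain ITGB1 had 427 and 443 CPM against 782 and 865 CPM, a change of 0.92 (SE 0.0895). In each of these genes both combination libraries lay above both ATRA libraries, as in 36.3% of all genes tested. Paired and inhibitory receptors, which set the threshold of myeloid activation, were higher in 16 of 19 tested cases (median 0.778, against 23.7% of all genes). LILRA5, an activating receptor, had 37.8 and 43.4 CPM against 335 and 363 CPM, a change of 3.10 (SE 0.0968, adjusted p = 1.06e-11). PILRA, an inhibitory receptor, changed by 3.03 (SE 0.126). LILRA6 and LILRB3 changed by 4.47 (SE 0.193) and 3.58 (SE 0.162), but their sequences are near-identical and reads could be split between them, so these values are uncertain.

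Genes of the MHC class II pathway, which presents peptides to helper T cells, were all higher where tested, 6 of 6. Their median was 3.2, and 23.7% of all genes were higher. HLA-DMA, a chain of the peptide editor of class II, had 5.4 and 6.41 CPM in ATRA and 59.7 and 62 CPM in the combination, a change of 3.37 (SE 0.114, adjusted p = 1.52e-11), and its partner HLA-DMB had 0.562 and 0.886 CPM against 13.8 and 12.8 CPM. CIITA, the coactivator that class II transcription needs, had 0.776 and 0.443 CPM against 6.4 and 4.41 CPM, a change of 3.13 (SE 0.306). The invariant chain CD74 changed by 1.34 (SE 0.0943) and HLA-DRB1 by 3.26 (SE 0.12), the latter a polymorphic gene with close copies. HLA-DRA, the chain that pairs with every HLA-DR beta chain, stayed low at 0.455 and 0.207 CPM against 2.19 and 2.11 CPM, a change of 2.67 (SE 0.387). It passed the read filter only with its combination libraries counted, so its place among the 6 leans towards a rise. The HLA-DP and HLA-DQ genes were too low to test. Of the MHC class I genes 5 of 12 were higher and 3 lower, beside 23.7% and 27.5% of all genes. B2M, the shared light chain, had 1584 and 1623 CPM against 2212 and 2465 CPM, a change of 0.54 (SE 0.0979), and HLA-E rose by 0.78 (SE 0.0808), while the peptide transporter chain TAP2 changed by −0.75 (SE 0.0968).

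Granule and neutrophil genes moved both ways, with 10 of 16 tested members higher and 5 lower, beside 23.7% and 27.5% of all genes. The share lower was thus near that of all genes. Lysozyme (LYZ), a secreted enzyme of monocytes and granulocytes, had 276 and 271 CPM in ATRA and 2492 and 2619.5 CPM in the combination, a change of 3.22 (SE 0.0994, adjusted p = 1.06e-11). S100A9, a chain of the calprotectin complex, had 36.6 and 39.8 CPM against 186 and 193 CPM, a change of 2.31 (SE 0.0861), and the formyl peptide receptor FPR1 had 2.49 and 2.89 CPM against 31.1 and 35.2 CPM. S100A12 had 1 count in ATRA and 152 in the combination, 165 times as many after scaling (95% counting interval 29.2 to 6572). Scaled within the 8 libraries of the line comparison, MMP8 had 0.0519 and 0.0856 CPM against 1.93 and 1.91 CPM. CXCR1 had 0.0259 and 0 CPM against 0.489 and 0.504 CPM on that scale. S100A12, MMP8 and CXCR1 passed the read filter only through the combination libraries, so they could enter the 10 only as rises. Cathepsin G (CTSG), a serine protease of azurophil granules that promyelocytes make, had 749.6 and 834 CPM against 234 and 270.3 CPM, a change of −1.65 (SE 0.0985, adjusted p = 3.90e-09). PRTN3 and ELANE, the related granule proteases proteinase 3 and neutrophil elastase, were chosen after their values were seen: PRTN3 had 120.0 and 129 CPM against 17.8 and 18.1 CPM, a change of −2.80 (SE 0.0908), and ELANE had 94.1 and 122 CPM against 22.4 and 20.9 CPM, a change of −2.32 (SE 0.123). The 5 lower members were these 3 proteases with AZU1, their inactive relative, and the chemokine receptor CXCR2. The calls of the last 2 were lost under some alternatives (AZU1, adjusted p = 0.16 with all 8 U-937 libraries, and CXCR2, adjusted p = 0.11 with DESeq2). Myeloperoxidase (MPO) was too low to test, with 25 counts in ATRA and 10 in the combination.

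Cytokines, chemokines and their receptors were higher in 13 of 16 tested cases and lower in none. This stood beside 23.7% and 27.5% of all genes, and the median was 1.59. CXCL8, the neutrophil chemokine, had 0.722 and 1.51 CPM in ATRA and 10.7 and 12.1 CPM in the combination, a change of 3.37 (SE 0.262, adjusted p = 2.16e-07). CCR2, the receptor that leads monocytes out of marrow, had 5.8 and 5.32 CPM against 34.9 and 41.9 CPM, a change of 2.78 (SE 0.129). CXCR4, the marrow homing receptor, had 394 and 428 CPM against 1159.9 and 1283 CPM, a change of 1.57 (SE 0.0949). The 2 receptors and the chemokine show no overlap between groups, and both combination libraries were above in 36.3% of all genes tested. IL1B changed by 2.29 (SE 0.149), and IL1RN, the antagonist of its receptor, by 2.88 (SE 0.263). IL6 had no count in any library. Of 9 genes of cytokine receptor feedback 7 were higher (23.7% of all genes) and none lower. IL3RA, the interleukin 3 receptor chain, rose by 1.84 (SE 0.415) and SOCS3, a suppressor of cytokine signalling, by 1.17 (SE 0.22).

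Interferon-stimulated genes were higher in 13 of 19 tested cases and lower in 2, beside 23.7% and 27.5% of all genes (median 1.35). OAS1, which makes the activator of RNase L, had 82.6 and 78 CPM in ATRA and 407 and 441 CPM in the combination, a change of 2.40 (SE 0.0881, adjusted p = 3.28e-11). IFI6 had 34.1 and 36.9 CPM against 140.0 and 146 CPM, a change of 2.01 (SE 0.0859), and IFIT2 changed by 3.08 (SE 0.155). The 2 lower genes, RSAD2 (−1.40) and USP18 (−1.03), and the members MX1 and ISG15, which did not pass (changes of −0.32 and 0.31, adjusted p = 0.31 and 0.35), were named after their values were seen. The list therefore did not move as a whole. The phagocyte NADPH oxidase, which makes superoxide, was higher in 5 of 6 subunits (23.7% of all genes). Its membrane subunit CYBB had 212 and 215 CPM against 552 and 660.3 CPM, a change of 1.51 (SE 0.0969), while CYBA had a change of −0.10 (adjusted p = 0.51). NCF1, which has near-identical pseudogenes, changed by 0.76 (SE 0.112) and is uncertain. Of 7 tested eicosanoid enzymes 6 were higher (23.7% of all genes) and none lower. Prostaglandin E synthase (PTGES) had 3.37 and 3.48 CPM against 21.8 and 23.8 CPM. Leukotriene A4 hydrolase (LTA4H) changed by 1.47 (SE 0.0911) and ALOX5AP by 1.07 (SE 0.0912). Lysosomal genes were higher in 10 of 19 cases and lower in 1, beside 23.7% and 27.5% of all genes, and moved by less. The elastin-cleaving protease CTSS rose by 0.84 (SE 0.0917), GLA changed by −0.65 (SE 0.0877), and the aspartic protease CTSD had a change of 0.03 (adjusted p = 0.83).

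Retinoid receptors and targets, the genes closest to the ATRA that both groups received, were higher in 9 of 17 tested cases and lower in 1. This stood beside 23.7% and 27.5% of all genes, and the median was 0.405. TGM2 (transglutaminase 2) had 77.9 and 76.2 CPM in ATRA and 176 and 158 CPM in the combination, a change of 1.12 (SE 0.0842, adjusted p = 4.67e-08). The receptor RARG had 2.51 and 2.72 CPM against 9.31 and 6.71 CPM, a change of 1.62 (SE 0.209). In both genes the combination libraries were above the ATRA libraries, as in 36.3% of all genes tested, and the 2 combination libraries of RARG differed more. The retinal reductases RDH11 and DHRS3 changed by 1.10 (SE 0.0839) and 0.96 (SE 0.0897), and the corepressor NCOR1 had a change of −0.06 (adjusted p = 0.55). CYP26A1, the retinoic acid hydroxylase that many cells induce under ATRA, was too low to test, with 1 count in ATRA and 0 in the combination, as were CYP26B1 and CRABP1 with no count.

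Transcription factors of monocytes and granulocytes were higher in 9 of 16 cases and lower in 3, beside 23.7% and 27.5% of all genes. PPARG, a lipid-sensing nuclear receptor of macrophages, had 31.4 and 35.9 CPM in ATRA and 81.1 and 88.2 CPM in the combination, a change of 1.33 (SE 0.0938, adjusted p = 2.31e-08). EGR2, KLF4 and EGR1 changed by 2.04 (SE 0.366), 1.38 (SE 0.246) and 1.69 (SE 0.417), from levels below 2 CPM. CEBPA, the factor of granulocyte commitment, was lower, with 141 and 164 CPM against 93.7 and 104 CPM, a change of −0.63 (SE 0.0924). PPARG, EGR2, KLF4 and EGR1 therefore rose while CEBPA fell.

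Of 12 genes of the CoREST complex that Corin targets, 3 were higher and 7 lower. So 83.3% were called, beside 51.2% of all genes and 58.8% of protein-coding genes. The median was −0.408, and no subunit changed by 1 or more on the log2 scale. KDM1A (LSD1) had 158 and 152 CPM in ATRA and 102 and 109 CPM in the combination, a change of −0.55 (SE 0.0805, adjusted p = 4.33e-05). HDAC2 had 167 and 169.6 CPM against 99.2 and 111 CPM, a change of −0.68 (SE 0.0835), whereas HDAC1 had 217 and 219 CPM against 208 and 217 CPM, a change of −0.04 (adjusted p = 0.74). The scaffold RCOR1 changed by −0.54 (SE 0.0834) and the histone reader PHF21A by 0.69 (SE 0.126). HDAC2 passed the test and HDAC1 did not, and the difference between them was not tested. Among repressors that recruit CoREST, 4 of 9 tested were higher and 2 lower, beside 23.7% and 27.5% of all genes. The share lower was thus near that of all genes. GFI1 had 222 and 198 CPM against 209.8 and 210.3 CPM with a change of −0.00133 (adjusted p = 0.99), BCL6 had 23.2 and 23.2 CPM against 76.9 and 71.5 CPM, a change of 1.68 (SE 0.0891), and ZNF217 and SNAI1 changed by 1.50 (SE 0.0813) and 2.10 (SE 0.394). Histone acetyltransferases and coactivators were lower in 6 of 10 cases and higher in 2, beside 27.5% and 23.7% of all genes. EP300 had 109.6 and 92.6 CPM against 66.9 and 54.1 CPM, a change of −0.74 (SE 0.114). The other deacetylases were higher in 5 of 10 tested cases and lower in 1, beside 23.7% and 27.5% of all genes. SIRT1 rose by 0.64 (SE 0.087) and HDAC11 by 0.81 (SE 0.195).

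Neuronal genes under REST, a repressor that works through CoREST, were mostly silent, and 15 of 21 were too low to test. Of the other 6, 1 was higher and 3 lower, beside 23.7% and 27.5% of all genes. The tubulin regulator STMN3 had 9.9 and 12.9 CPM in ATRA and 5.65 and 6.23 CPM in the combination, a change of −0.94 (SE 0.167). Of 10 tested genes that deacetylase inhibitors are known to raise, 4 were higher and 3 lower, beside 23.7% and 27.5% of all genes. The share lower was thus near that of all genes. TXNIP, an inhibitor of thioredoxin, had 122 and 114 CPM against 334 and 391 CPM, a change of 1.62 (SE 0.094, adjusted p = 2.90e-09), and GADD45B changed by 0.97 (SE 0.115), but the histone gene H2BC12 changed by −2.13 (SE 0.119). CDKN1A is counted in this list as well as among the CDK inhibitors. In the BCL2 family 8 of 13 were higher and 2 lower, beside 23.7% and 27.5% of all genes. BCL2 itself, which blocks cell death at mitochondria, had 40.7 and 40.3 CPM against 7.24 and 5.97 CPM, a change of −2.61 (SE 0.12, adjusted p = 2.77e-10). BCL2A1, another survival member, had 32.7 and 32.4 CPM against 84.2 and 94.5 CPM, a change of 1.46 (SE 0.0898), and the death-promoting BMF and BBC3 changed by 1.34 (SE 0.0839) and 1.51 (SE 0.248). BCL2 and BCL2A1 therefore moved in opposite directions. Cholesterol synthesis and uptake genes were higher in 4 of 15 cases and lower in 2, so the share called higher was near the 23.7% of all genes. The efflux pump ABCA1 had 1.58 and 1.36 CPM against 7.07 and 7.98 CPM, a change of 2.35 (SE 0.213), and SREBF1 changed by −0.58 (SE 0.103).

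To see where the response of U-937 differs from that of the second line, the effect of Corin on top of ATRA was compared between U-937 and SKNO-1 in 1 fit of 8 libraries, within which the CPM values of SKNO-1 below are scaled. The lines differ in origin and SKNO-1 was grown with GM-CSF, and these cannot be told apart. The effect differed in 6881 of 19004 genes (36.2%, edgeR interaction test): it was higher in U-937 for 2996 (15.8%) and lower for 3885 (20.4%). Higher calls were 43.5% of these, and 32.7% (2192 of 6706) with libraries scaled by their totals only, where the median difference was −0.18 against −0.07. In SKNO-1 alone Corin was followed by 4975 genes higher and 4531 lower in the same fit.

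The fall of replication genes was far deeper in U-937. MCM4, with a change of −3.53 in U-937 in this fit, had 386 and 384 CPM in the SKNO-1 ATRA libraries and 305 and 304 CPM in the SKNO-1 combination libraries, a change of −0.34 and a difference between the lines of −3.20 (SE 0.115, adjusted p = 6.47e-16). The effect on all 17 licensing genes and all 19 replication fork genes was lower in U-937 than in SKNO-1 (beside 20.4% of all genes), with list medians of −3.12 against −0.50 and −2.38 against −0.29. In SKNO-1 13 of the 17 and 12 of the 19 were themselves called lower, beside 4531 of all 19004 genes. Mitotic genes were lower in U-937 in 21 of 22 cases, with medians of −1.64 against −0.37. Histone genes differed in direction, with a median of −1.93 in U-937 and 0.26 in SKNO-1. In SKNO-1 12 of 24 were called higher and none lower, beside 4975 and 4531 of all 19004 genes. The effect was lower in U-937 for 20 of 24. The other 4 (H1-1, H2AC8, H2BC8 and H3C8, named after their values were seen) had no count in the U-937 ATRA libraries and at most 3 in the combination, so they carry no U-937 value to compare, and the U-937 median over the 20 measured genes was −2.1 in the fit of 4 libraries. H3C2 had 310.2 and 326 CPM against 343 and 321 CPM in SKNO-1, a difference between the lines of −2.35 (SE 0.122, adjusted p = 2.29e-13). MYC had 378 and 413 CPM against 289 and 304 CPM in SKNO-1, a difference of −2.64 (SE 0.125, adjusted p = 4.78e-14). BCL2 had 65.8 and 67.3 CPM against 53 and 49 CPM there, a difference of −2.16 (SE 0.128, adjusted p = 2.04e-12).

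Myeloid genes differed gene by gene. LYZ, at 48.7 and 45.3 CPM against 388 and 373 CPM in SKNO-1, had a difference between the lines of 0.28 (SE 0.119, adjusted p = 0.073). CD86 had 0.15 and 0.108 CPM against 24.8 and 25.6 CPM in SKNO-1, a change of 7.58 there against 5.31 in U-937, with a difference of −2.28 (SE 0.404, adjusted p = 8.26e-05). CD52 had 10 and 10.2 CPM against 25.7 and 24 CPM there, a difference of 3.77 (SE 0.141, adjusted p = 7.68e-16). On the log2 scale CD86 thus changed more in SKNO-1, where few reads were counted with ATRA alone, and CD52 more in U-937. In CPM, CD86 reached the higher level in U-937, from 3.71 and 4.91 CPM to 155 and 185 CPM in this fit. Among paired receptors 11 of 19 had an effect lower in U-937 (20.4% of all genes) and 3 higher, the same share as the 15.8% of all genes. In that list LILRA5 was found with 0.0599 and 0.0539 CPM against 4.75 and 4.65 CPM in SKNO-1. In U-937 LILRA5 had 36.6 and 41.9 CPM against 333 and 375 CPM in this fit. A lower effect in U-937 can thus rest on few reads in SKNO-1 with ATRA alone and does not mean a lower level. SIGLEC7 (0.0599 and 0.0539 CPM) and LILRB1 (0 and 0.108 CPM) were also low there, but SIGLEC10 was not (6.08 and 6.04 CPM). These genes were named after their values were seen. The azurophil protease PRTN3 went in opposite directions, falling in U-937 as given above and going from 27.4 and 32.1 CPM to 62 and 69.3 CPM in SKNO-1, a difference of −3.87 (SE 0.127, adjusted p = 1.81e-16). CDKN1A had 2.34 and 1.83 CPM against 11.4 and 12.3 CPM in SKNO-1, and its difference between the lines was −0.42 (SE 0.236, adjusted p = 0.2). Cholesterol synthesis and uptake genes had an effect higher in U-937 in 11 of 15 cases, with medians of 0.05 against −0.47. HMGCS1, an early enzyme of the pathway, rose by 0.51 on the log2 scale in U-937 and fell from 324 and 310.1 CPM to 148 and 152 CPM in SKNO-1, a difference of 1.59 (SE 0.11, adjusted p = 2.93e-11).

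**Figure D4:**
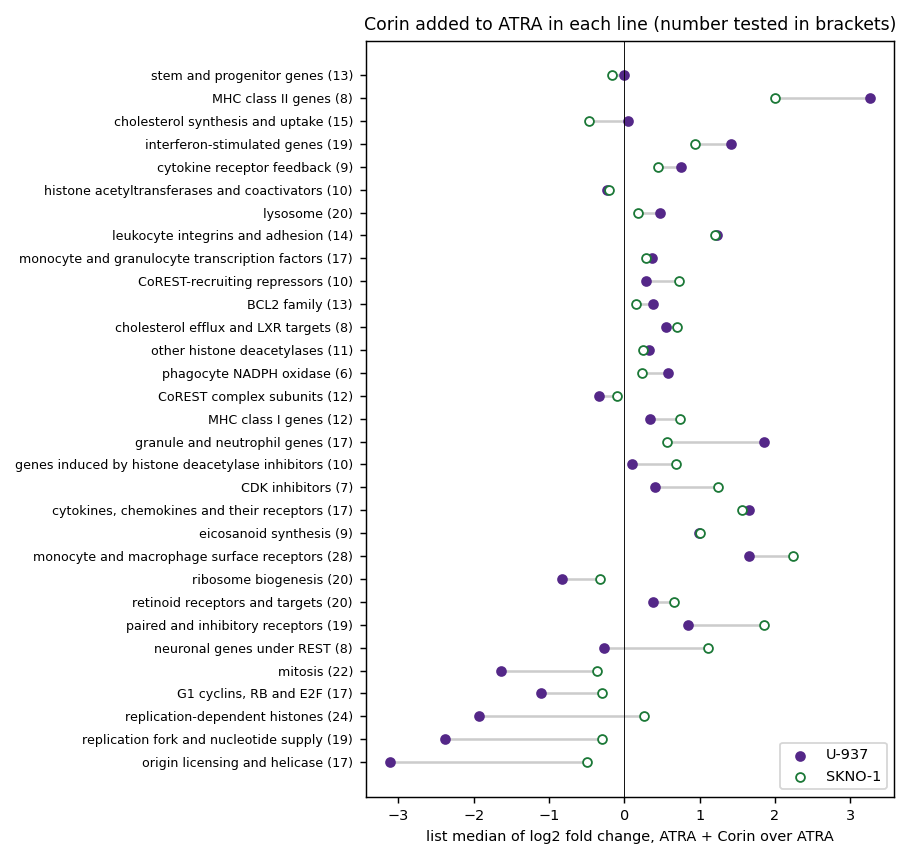
Median log2 fold change of each of 31 gene lists when Corin is added to ATRA, in U-937 (filled) and SKNO-1 (open), ordered by the median of the member-wise difference. The replication, histone and mitosis lists lie farther to the left in U-937 and most receptor and cytokine lists lie to the right of 0 in both lines.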

How the data were processed

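Total RNA of 4 U-937 libraries, and of 4 SKNO-1 libraries for the comparison between lines, was sequenced from stranded libraries as paired-end reads of 100 bases, per the labels' protocols. The names of the deposited tables mark single-end processing, and gene lengths exceed RSEM's effective lengths by a median of 99.7 bases, so the estimated counts and TPM the authors deposited may rest on 1 read of each pair. The submitters' processing notes name Trimmomatic, STAR, RSEM and the hg38 build. The annotation release and whether counting used strand are not given in the sources used here. The authors deposited estimated counts per gene and TPM from RSEM. Of the positive estimated counts, 20.3% were not whole, and they were rounded for the tests. Counts of 45 genes entered under chromosome Y in the pseudoautosomal region were added to their X entries, a choice made after seeing the files. No spike-in gene is in the table (0 entries).

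Genes were filtered with filterByExpr, scaled with TMM and tested with edgeR 4.0.16 (quasi-likelihood F test, robust, limma 3.58.1, R 4.3.3) on the 4 libraries, which leave 2 residual degrees of freedom. The filter keeps a gene that enough libraries of either group reach. A gene near 0 in 1 group was thus tested only if it was higher in the other. This sets the direction of such genes in the counts for the lists and for all genes. Genes at a Benjamini-Hochberg adjusted p under 0.05 were called. CPM values are scaled with the TMM factors, TPM values were used for the marker sums, and counting intervals of ratios are exact at 95% and cover counting error only. The line difference is the interaction term in 1 edgeR fit of 8 libraries. DESeq2 1.42.0 was an alternative. On simulated counts of 16858 genes for the U-937 comparison, 99% of genes changed by 1 on the log2 scale and 100% of those changed by 2 were called, with 4 false calls. For the line difference over 19004 genes these shares were 91% and 100%, with 11 false calls. Each simulation changed 200 genes above a minimum expected count, equally up and down, with 1 dispersion for all genes. In the U-937 data 51.2% of the genes were called, many of them with few counts. The simulated shares and false calls therefore do not describe how well the real comparisons perform. Replicates of a group differed beyond sampling noise (chi-square per degree of freedom 13.4 and 12.5), so no library was counted as a duplicate. The labels give both groups the replicate numbers 1 and 2, with nothing to say that they mark a shared culture or day.

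Named genes were the 12 largest rises and 12 largest falls among called, named genes that averaged 5 CPM or more and whose groups did not overlap. From each list, up to 4 called members with the largest change, the 3 with the highest mean TPM and all members of lists of at most 12 genes could be named, and from the line difference the 5 highest and 5 lowest. The lists and members were chosen with earlier results of these data known. Promoter sequences came from the RefSeq table (GRCh38.p14), and other positions from the reference annotation of GRCh38. Some genes of the lists are counted but not reported by name here.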

Additional observations from a re-analysis of the deposited data

Results flagged for a closer look

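The effect of Corin added to ATRA differed between U-937 and SKNO-1 in 6881 genes by the edgeR interaction test. The values named here are the 5 highest and the 5 lowest differences of the log2 fold change (U-937 minus SKNO-1), with CPM scaled within the 8 libraries.

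TNFSF15, a cytokine of the TNF family, had 0.13 and 0.285 CPM in the U-937 ATRA libraries and 27.9 and 34.3 CPM in the U-937 combination libraries, against 0.0898 and 0.027 CPM and 0.155 and 0.209 CPM in SKNO-1, a difference of 5.60 (adjusted p = 4.70e-04). PLXDC2, a membrane protein, rose in U-937 from 0.104 and 0.0571 CPM to 3.42 and 3.36 CPM and had 48.3 and 43.4 CPM and 45.8 and 45.5 CPM in SKNO-1, a difference of 5.32. BNC2, a zinc finger factor, had 23.7 and 22 CPM against 15.6 and 16 CPM in U-937. In SKNO-1 it had 14 counts over the ATRA libraries and none over the combination libraries. Its fitted difference was 5.26, although BNC2 was lower in the combination in U-937. DUXAP9, a pseudogene with near-identical copies, and CYP2U1, a cytochrome P450, had no count in the U-937 ATRA libraries and 5 and 7 counts in the U-937 combination libraries, with fitted differences of 4.73 and 4.67. In SKNO-1 DUXAP9 had 30.9 and 28.8 CPM against 25 and 24.9 CPM. CYP2U1 had 21.9 and 21.1 CPM against 25 and 26.8 CPM there.

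WFDC1, a secreted protease inhibitor, fell in U-937 from 3.53 and 3.91 CPM to 0.833 and 1.04 CPM and rose in SKNO-1 from 0.599 and 0.62 CPM to 25.9 and 26.1 CPM, a difference of −7.40. LRP1, an endocytic receptor, was higher in the combination in both lines, from 0.57 and 0.285 CPM to 5.14 and 4.33 CPM in U-937 and from 1 count over the ATRA libraries to 24.3 and 20.6 CPM in SKNO-1, a difference of −6.86. MCAM, an adhesion molecule, had 3 counts in the U-937 ATRA libraries and 0 in the combination, and went from 0.479 and 1.11 CPM to 29.6 and 31 CPM in SKNO-1, a fitted difference of −8.83. FARP1, a guanine nucleotide exchange factor, and ABLIM1, an actin-binding protein, had no count in the SKNO-1 ATRA libraries and 69 and 41 counts in the SKNO-1 combination libraries. In U-937, FARP1 had 19.4 and 20.9 CPM against 10.7 and 12.5 CPM and ABLIM1 11.7 and 9.64 CPM against 14 and 15.3 CPM, with fitted differences of −8.97 and −6.97. Where a group of a gene is at 0, or at 1 to 3 counts as in LRP1 and MCAM, the fitted difference depends on the prior count and is no bound.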

How the results depend on the processing

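The U-937 comparison called between 6740 (adjusted p under 0.01) and 10114 genes under all alternatives, beside 8639. DESeq2 called 7362 and all 8 U-937 libraries 8390, with 7313 and 8172 of the 8639 genes called in the same direction. Leaving out 1 library at a time gave 6865 to 8194 calls, 3108 to 3739 of them higher and 3757 to 4464 lower, and the lone sample left is then assumed to vary like the other group. With the replicate block, which rests on shared numbers only (correlation of deviations 0.18), the calls numbered 9563, and 10114 with a GC trend removed as well. For the line difference the block gave 7534 and 7674. The GC trend was held to a mean of 0 after its first form was seen to recentre the libraries, and recentring and leaving out small RNA genes were added after seeing the data. For the line difference, all 16 libraries in the fit gave 1915 genes higher in U-937 beside 2996, and the cause was not tested. Leaving out 1 library gave 5635 to 7492 calls, 2083 to 3531 higher and 3278 to 4017 lower. Of 354 called genes in the lists and among the named, 291 kept their call in all 14 alternatives, 63 lost it in at least 1 and 0 reversed, and the 24 named genes kept theirs. In the line difference 4 of 10 named genes did not keep their call over 17 alternatives. TNFSF15 lost it without SKNO-1 ATRA replicate 1 (adjusted p = 0.12), and MCAM without U-937 ATRA replicate 2 (0.060). DUXAP9 and CYP2U1 lost it without U-937 combination replicate 1 (0.0503 and 0.083), ATRA replicate 1 (0.077 and 0.070) and ATRA replicate 2 (0.064 and 0.058). The 2 libraries per group limit the precision of all values.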

Other observations

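RN7SL1, the RNA of the signal recognition particle, took 3.37% and 4.11% of the counts in the ATRA libraries and 5.61% in each combination library, a log2 change of 0.62 (adjusted p = 0.0024, edgeR). PAX5, a B cell factor on the marker lists, had 4.57 and 3.57 CPM in ATRA and 0.404 and 0.454 CPM in the combination, a change of −3.24 (SE 0.301). Among the 16858 genes tested, 29 had no count in either ATRA library and 9 had none in either combination library.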
